A study of Mus musculus with 5 samples.

Results

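Rpsa, Rps2, Rps3, Rps4x and Rps6 encode proteins of the small subunit of the cytosolic ribosome, and their ribosome footprints were followed in brain slices after new translation was blocked. The members were taken by gene symbol from the deposited count data, where 5 of 5 were found among 10329 genes. The slices, of hippocampus and cortex, came from male C57BL/6N mice of wild-type genotype at an age of 28 to 35 days, and were treated with 20 µM homoharringtonine (HHT) for 0, 5, 10, 30 or 60 min, with 0.05% DMSO as vehicle. HHT is a plant alkaloid that stops ribosomes in the first rounds of elongation, while ribosomes already under way run off the mRNA. Each pool held 10 slices from 2 to 3 mice, after 3 to 4 h of recovery, and each time point was 1 library, so 5 groups of 1 make up the series. No vehicle library at 5 to 60 min was analysed here, so time on HHT and time after slicing cannot be told apart. With 1 library per time, no difference between single times has a replicate check or a p-value. Intervals are 95% intervals for counting error alone. In bulk tissue, fewer cells of a type and less RNA or fewer ribosomes per cell cannot be told apart.

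The small subunit binds mRNA, scans for the start codon and holds the decoding site, and its proteins are built into it with ribosomal RNA in the nucleolus and the cytoplasm. Messages for ribosomal proteins belong to the TOP class, which begin with a cytosine and a run of pyrimidines and whose translation follows mTOR activity through LARP1. Their coding sequences are short, so a ribosome crosses one of them in less time than it needs for most other messages. Neurons keep many ribosomal protein mRNAs in dendrites and axons as well as in the cell body.

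Stretches at or near the transcript starts of the members are shown because the class is defined at the start. Each printed window was placed around the longest run, not around the start. The longest unbroken run of C and T on the transcript strand, within 25 bases before to 50 bases after the RefSeq start (build GRCm38.p6), is in capitals in a window of 30 bases.
Rpsa: ccggccgcccgTCCTTTCgcgctacccggg
Rps2: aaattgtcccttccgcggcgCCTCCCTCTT
Rps3: gcggcgtcattgCTCCCgccctatatacct
Rps4x: cgcgcagcctccgaccctaaTTTCTTCgtt
Rps6: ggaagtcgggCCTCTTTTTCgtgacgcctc
These windows lie at chr9:120127775-120127804 (plus strand), chr17:24720083-24720112 (plus), chr7:99483673-99483702 (minus), chrX:102189342-102189371 (minus) and chr4:86857349-86857378 (minus). The run of Rps6 was 10 bases long and lay across the RefSeq start. Only the window of Rps6 holds that start. Those of Rpsa, Rps2, Rps3 and Rps4x lie inside the transcript, so they do not show the first base that defines the class. Runs of 7, 10, 5 and 7 bases in Rpsa, Rps2, Rps3 and Rps4x began 21, 41, 20 and 41 bases into the transcript as RefSeq gives it, and that of Rps2 reached the end of the window. Runs of at least 10 bases occurred in 13.0% of 32851 such windows, of at least 7 in 40.0% and of at least 5 in 78.0%. On the opposite strand the longest runs were 5, 4, 5, 7 and 5 bases in the order printed.

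What was counted is a small piece of each coding sequence (CDS). The authors counted the CDS without its ends, and the deposited length-scaled signal implies that 600 nt were left out. Neither labels nor headers say which 600 nt these were, so the place of the counted piece within each CDS is unknown. That left 288 of 888 nt in Rpsa (NM_011029, chromosome 9, 120127766 to 120132369) and 282 of 882 nt in Rps2 (NM_008503, chromosome 17, 24718121 to 24721927). It left 192 of 792 nt in Rps4x (NM_009094, chromosome X, 102184941 to 102189391), 150 of 750 nt in Rps6 (NM_009096, chromosome 4, 86854099 to 86857367) and 132 of 732 nt in Rps3 (NM_012052, chromosome 7, 99477896 to 99483709). These positions are RefSeq gene spans on GRCm38.p6, which can take in more than 1 transcript. The span of Rps2 also holds a predicted transcript, and the start used for its window above lies inside it. The count table starts at a CDS of 603 nt, so most other small subunit mRNAs, being shorter, are not in it. Ribosomal protein genes have many processed pseudogenes, and how reads shared with them were assigned is a point not given in the sources used here, so the members' counts are uncertain to that extent.

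The libraries held 7155147 counts before HHT and 1346175 to 2787749 after it, fewest at 60 min. Neuronal markers were abundant at 0 min (7 of 8 listed were in the count table, with signals of 3637 to 42008), and astrocyte, oligodendrocyte, microglial and endothelial markers were also present. In counts per 1e6 counts of the library (CPM), summed oligodendrocyte markers went from 3486 to 1145 CPM between 0 and 60 min. Those of microglia went from 323 to 70.6, those of astrocytes from 6001 to 4376 and those of neurons from 12403 to 15421. Endothelial markers went from 117 to 111, with 216 at 10 min. Of the oligodendrocyte list 5 of 6 were measured, and of the microglial list 6 of 6. The oligodendrocyte marker left out, Mbp, is in the deposited TPM data alone and went the other way, from 6775 to 22887. The part of cell type in the values below was not tested.

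Before HHT the 5 mRNAs had more footprint signal than most genes. No mRNA level was analysed here, so mRNA amount and ribosome load per mRNA cannot be told apart. Signal, the deposited count per kilobase of counted CDS over a factor for each library, was 4847 for Rps6 at 0 min (interval 4501 to 5212), rank 269 of 10329 genes, against a median of 221 over all genes. Rps2 had a signal of 2592, Rpsa 2576, Rps3 2258 and Rps4x 2219. Rps6 was therefore 1.87 times the next member, Rps2 (1.68 to 2.07), while each neighbour below it in the order differed by less than counting error. Rps2 over Rpsa was 1.01 (0.907 to 1.12), Rpsa over Rps3 was 1.14 (0.996 to 1.31) and Rps3 over Rps4x was 1.02 (0.875 to 1.18). In the deposited TPM, which uses its own length correction, Rps6 was again highest with 614, followed by Rps3 with 297, Rpsa with 288, Rps2 with 285 and Rps4x with 265. The place of Rps3 among the lower levels thus depends on the length correction, which weighs most on the shortest window.

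With HHT the gap between Rps6 and the next member narrowed, while Rps4x and Rps3 came to lie further below Rpsa and Rps2. At 60 min signals were 863 for Rps6 (719 to 1028), 778 for Rpsa (678 to 888), 772 for Rps2 (672 to 884), 482 for Rps4x (387 to 592) and 319 for Rps3 (229 to 433). Rps6 exceeded Rpsa by 1.64 times at 5 min (1.32 to 2.04) and 1.31 times at 10 min (1.04 to 1.63). At 30 and 60 min the intervals of that ratio included 1, with 1.11 (0.903 to 1.36) and 1.11 (0.884 to 1.39). Rps2 over Rps4x was 1.46 (1.11 to 1.93), 1.97 (1.48 to 2.65), 1.48 (1.18 to 1.88) and 1.60 (1.25 to 2.08) in time order from 5 min. At 0 min the same ratio was 1.17 (1.04 to 1.32). Rpsa and Rps2 were thus above Rps4x in every treated library by more than counting error.

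**Figure D1:**
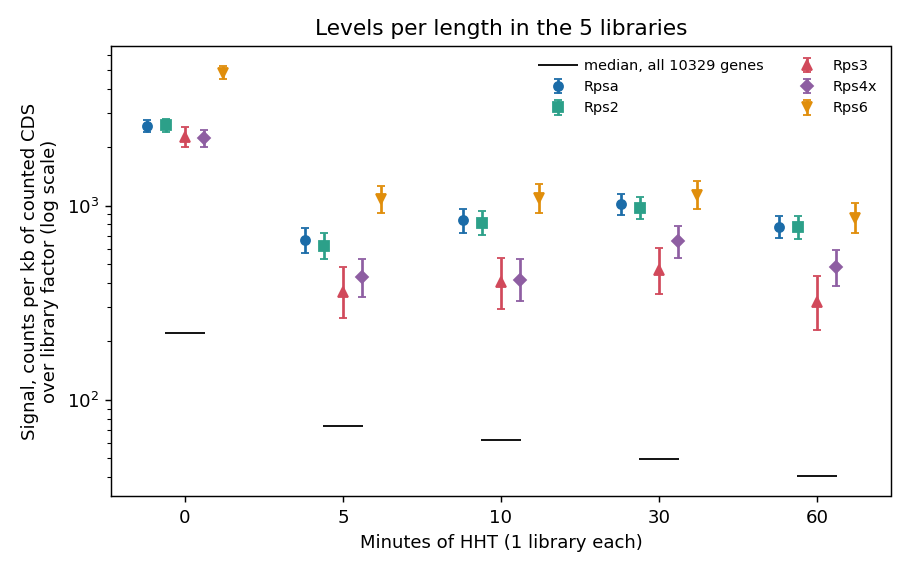
Signal (counts per kilobase of counted CDS over the library factor, log scale) of the 5 members in each library, by minutes of HHT; bars are 95% Poisson intervals and black dashes the median of all genes. Rps6 is highest in each library, and at 60 min Rpsa and Rps2 sit at 778 and 772, above Rps4x at 482 and Rps3 at 319.

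The first question is how much signal was left on each mRNA. Rpsa, a protein needed for maturation of small subunit ribosomal RNA and also named as a laminin receptor, had 742 counts at 0 min and 184, 200, 259 and 218 at 5, 10, 30 and 60 min. Set against 0 min, its ratios in the authors' deposited table were 0.257, 0.325, 0.396 and 0.302. The lowest treated library was that of 5 min and the highest that of 30 min. Rps2, which lines the entry of the mRNA channel, had 731, 169, 191, 242 and 212 counts in the order 0, 5, 10, 30 and 60 min. Its ratios in the authors' deposited table were 0.240, 0.316, 0.376 and 0.298, the same course as Rpsa.

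Rps4x, encoded on the X chromosome, had 426 counts at 0 min and then 79, 66, 111 and 90. In the authors' deposited table its ratios were 0.192, 0.187, 0.296 and 0.217, low at 5 and 10 min and highest at 30 min. Rps6, the substrate of the S6 kinases below mTOR, had 727 counts at 0 min and then 157, 136, 150 and 126. Its ratios were 0.224, 0.226, 0.234 and 0.178 in the authors' deposited table, nearly level over the first 3 treated times and lowest at 60 min. Rps3, a protein of the mRNA entry site that also takes part in DNA repair, had 298 counts at 0 min and then 46, 44, 54 and 41. Its ratios in the authors' deposited table, 0.160, 0.178, 0.206 and 0.141, were the smallest of the 5 at each treated time, though not apart from Rps6 by more than counting error at any of them.

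All 5 members were at a ratio of 0.5 or less at each treated time, as were 78.1%, 84.3%, 95.4% and 97.3% of all genes in time order, so the count says nothing particular of them. What differed from the typical mRNA was the course. The median ratio of all genes went down at each step in the authors' deposited table, 0.333, 0.268, 0.223 and 0.181, while the median of the 5 members was 0.224, 0.226, 0.296 and 0.217. The members were below the all-gene median in 5 of 5 cases at 5 min, and Rpsa, Rps2 and Rps4x were above it at 30 and 60 min. Over the 913 genes with a CDS of 700 to under 900 nt, the members' own range, the median (authors' deposited table) was 0.207, 0.211, 0.212 and 0.183. Against these genes Rpsa stood at percentile 68.8 at 5 min and 89.2 at 30 min, Rps2 at 64.8 and 87.2, and Rps3 at 27.7 and 47.1. Rps4x went from 42.9 to 76.3. At 60 min these members stood lower than at 30 min, with Rpsa at 81.3, Rps2 at 81.1, Rps3 at 30.9 and Rps4x at 63.9. Rps6 was at 57.6 and 59.4, and at 48.4 at 60 min, so it held about the same place among genes of its length.

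**Figure D2:**
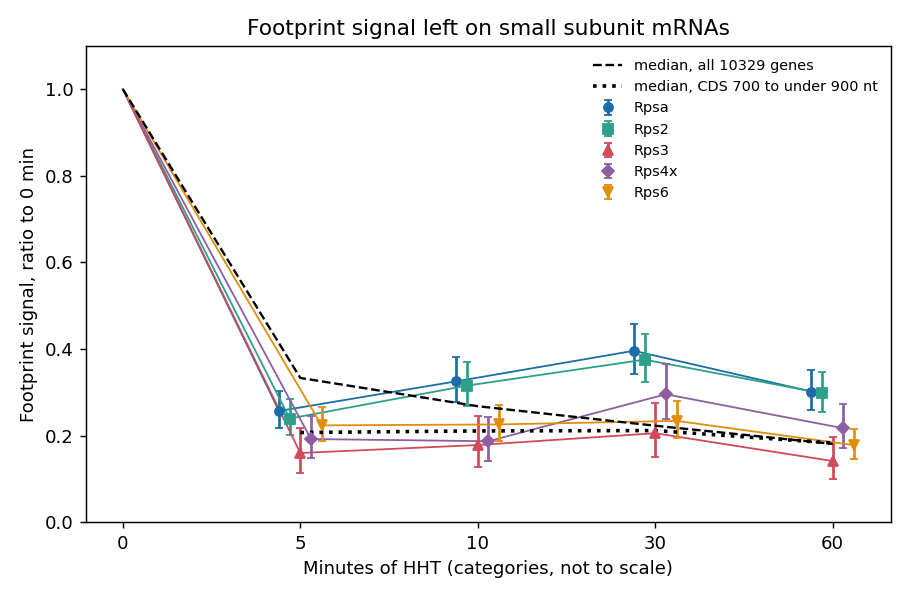
Footprint signal as a ratio to 0 min (vertical axis) by minutes of HHT (categories) for the 5 members; bars are 95% counting intervals, the dashed line is the median of all genes and the dotted line that of genes with a CDS of 700 to under 900 nt. All 5 members lie below the dashed line at 5 min, and Rpsa and Rps2 lie above both lines from 10 min on, with 0.396 and 0.376 at 30 min.

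Some members differed in the signal they kept by more than counting error. The ratio of 2 genes' ratios within the same libraries needs no library scaling, and all 10 pairs were compared at the 4 treated times. Rpsa and Rps2 could not be told apart at any treated time: Rpsa over Rps2 was 1.07 at 5 min (0.844 to 1.36) and 1.01 at 60 min (0.812 to 1.26). Rpsa kept 1.61 times as much as Rps3 at 5 min (1.12 to 2.33), against 2.13 times at 60 min (1.48 to 3.14), with 1.82 (1.27 to 2.66) and 1.93 (1.38 to 2.71) between. Rpsa over Rps6 was 1.15 at 5 min, with an interval that included 1 (0.900 to 1.47), and 1.69 at 60 min (1.32 to 2.18). Rps3 over Rps6 had intervals that included 1 at each treated time, with 0.715 at 5 min (0.490 to 1.03) and 0.794 at 60 min (0.530 to 1.17). Rps3 over Rps4x left out 1 at 60 min alone, with 0.652 (0.426 to 0.984). Intervals left out 1 for 2, 6, 5 and 7 of the 10 pairs in time order. These intervals are not adjusted for the 10 pairs, all share the 0 min library, and they hold counting error only.

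At 30 and 60 min the order of the ratios was that of CDS length: Rpsa, Rps2, Rps4x, Rps6 and Rps3. At 5 and 10 min Rps6 stood above Rps4x and the rest of the order was the same. Of the 4 neighbouring pairs in the order of 60 min, Rps2 over Rps4x alone had an interval that left out 1, with 1.37 (1.04 to 1.83), and at 30 min none did. Over the 913 genes of the length class Spearman's rho between CDS length and the ratio was 0.024 at 30 min and -0.024 at 60 min, given as a description across genes that share these libraries. Median ratios in the authors' deposited table at 60 min were 0.180 over 209 genes of 700 to under 750 nt and 0.175 over 244 genes of 850 to under 900 nt. Counted length follows CDS length exactly here, so the size of the counted piece and the length of the CDS cannot be told apart.

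**Figure D3:**
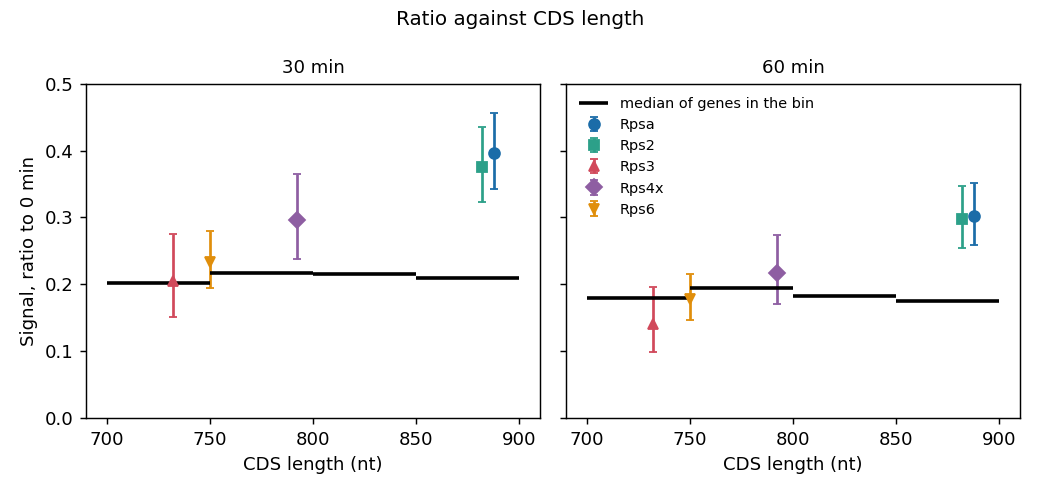
Ratio of signal to 0 min (vertical axis) against CDS length in nt at 30 min (left) and 60 min (right) for the 5 members, with 95% counting intervals; black lines are medians of all genes in bins of 50 nt. The members go from Rps3 at 0.206 to Rpsa at 0.396 at 30 min, while the black lines lie between 0.202 and 0.217.

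The second question is what happened between the treated times. Signal on Rpsa, Rps2 and Rps4x was higher at 30 than at 5 min, by 1.54 times (1.27 to 1.87), 1.57 times (1.28 to 1.92) and 1.54 times (1.14 to 2.08) with the deposited library factors. Rps3 was at 1.29 times, with an interval that included 1 (0.851 to 1.95), and Rps6 at 1.05 times (0.831 to 1.32). Among all 5361 genes whose counts at these 2 times summed to at least 100, 13.2% had a higher deposited ratio at 30 than at 5 min and 0.933% were at least 1.5 times higher. Among the members these counts were 5 and 3 of 5. In the length class 140 of 222 such genes were higher and 17 were at least 1.5 times higher, with a median of 1.07. These thresholds were chosen after the values were seen.

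From 30 to 60 min all 5 members went down, by more than counting error in 4. The ratios of 60 to 30 min were 0.762 for Rpsa (0.634 to 0.916), 0.793 for Rps2 (0.657 to 0.958), 0.734 for Rps4x (0.550 to 0.979), 0.761 for Rps6 (0.596 to 0.971) and 0.688 for Rps3 (0.447 to 1.05). The median of all genes over this step was 0.815, so the step down was near that of the typical mRNA. The direction of these steps rests on 1 library at each time and on its scaling factor, which moves all genes of a library alike. With TMM scaling, which sets the typical mRNA level, the ratios of 60 to 30 min were 0.849 to 0.980 and every interval included 1. The ratios of 30 to 5 min became 1.54 for Rps6 (1.22 to 1.93), 1.89 for Rps3 (1.25 to 2.86) and 2.26 to 2.30 for the other members.

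**Figure D4:**
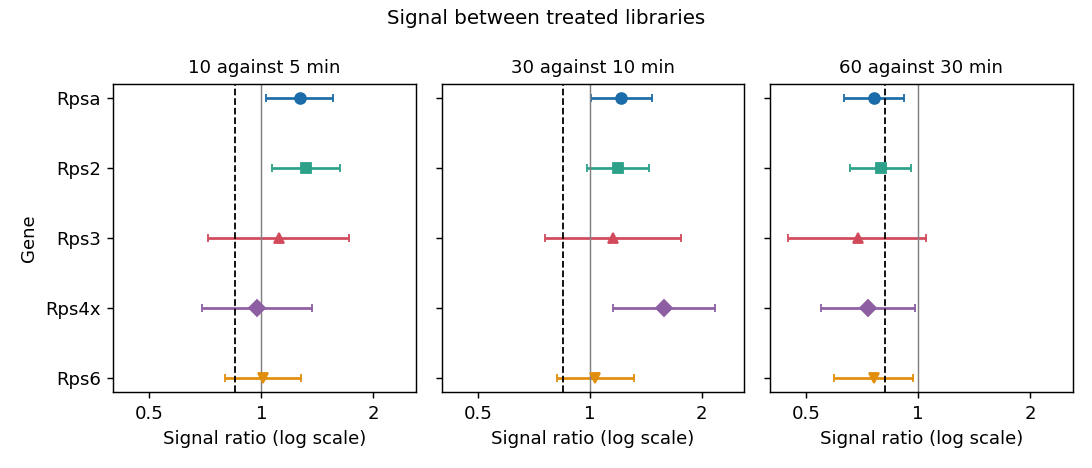
Ratio of signal between consecutive treated libraries (log scale, deposited library factors) for the 5 members in 3 panels; bars are 95% counting intervals, the grey line marks 1 and the dashed line the median of all genes. Rpsa and Rps2 are at 1.27 and 1.32 from 5 to 10 min, Rps4x at 1.58 from 10 to 30 min, and all 5 are below 1 from 30 to 60 min.

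The third question is whether footprints changed along time relative to other mRNAs. On TMM-scaled counts all 5 members were lower than the typical mRNA at 5 min. Log2 folds against 0 min were -1.03 for Rps3 (-1.54 to -0.60), -0.78 for Rps4x (-1.15 to -0.44), -0.57 for Rps6 (-0.83 to -0.32), -0.47 for Rps2 (-0.72 to -0.23) and -0.37 for Rpsa (-0.61 to -0.14). Rps3 was the 1 member at least 2-fold lower, a size reached by 5.77% of 7632 genes at that time. It was under 2-fold with a prior count of 5 (-0.99) and on log2(TPM + 1) (-0.90), so this call depends on the setting. At 60 min Rpsa and Rps2 were higher than the typical mRNA, with 0.72 (0.50 to 0.94) and 0.70 (0.48 to 0.93). Intervals of Rps4x (0.24, -0.10 to 0.58), Rps6 (-0.04, -0.32 to 0.23) and Rps3 (-0.37, -0.88 to 0.10) included 0. On log2(TPM + 1) Rpsa was at -0.21 at 5 min, and at 60 min Rps4x was at 0.094 and Rps6 at -0.19, inside the same intervals. No member was 2-fold apart in either direction at 10, 30 or 60 min, when 18.8%, 8.34% and 9.62% of genes were. These 4 sets of folds share the 0 min library.

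Along log2(minutes + 1) over the 5 libraries, 0 of 5 members were called by edgeR's quasi-likelihood test on TMM-scaled counts. Over all 9444 genes tested, 1 gene, Plek, was called lower (0.0106%) and 0 higher (0%), while 518 falling and 637 rising slopes had an unadjusted p under 0.05 and DESeq2 called 37 and 36. The slopes were 0.16 for Rpsa (SE 0.071), 0.15 for Rps2 (SE 0.072), 0.073 for Rps4x (SE 0.077), 0.014 for Rps6 (SE 0.063) and -0.036 for Rps3 (SE 0.074). Their adjusted p-values by edgeR were 0.415, 0.446, 0.770, 0.959 and 0.900. Each member was below the typical mRNA at 5 min and higher at 30 than at 5 min. Whether this course bears on the slope test was not tested, and nearly all genes went uncalled. With libraries scaled to 6 mitochondrially encoded genes, whose own ribosomes HHT does not target, all 5 members were called lower, as were 93.8% of all genes. Slopes were then -0.25 for Rpsa to -0.45 for Rps3.

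Without the 0 min library the slope runs over the 4 treated times, with 5.1% of 8631 genes called higher and 10.1% lower on TMM-scaled counts. Rps2 (slope 0.36, SE 0.088, adjusted p = 0.0203 by edgeR), Rps4x (0.37, SE 0.091, adjusted p = 0.0206) and Rpsa (0.34, SE 0.088, adjusted p = 0.0238) were called higher. Rps3 (0.24, SE 0.10, adjusted p = 0.128) and Rps6 (0.18, SE 0.081, adjusted p = 0.142) were not. On the mitochondrial scaling over the same 4 libraries, 45.8% of genes were called lower and 0.568% higher, and 0 of 5 members were called in either direction. The 3 calls were thus made on 1 of these 2 scalings. Leaving out the 0 min library on TMM scaling was among the alternatives listed at the outset, with earlier results of these data known. The mitochondrial scaling over the 4 treated libraries was not among them.

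The last question is how other messages of the same machinery behaved. Rps3a1 was the 1 further small subunit gene, of 30 symbols listed, in the count table. It had 666, 122, 121, 147 and 120 counts in time order, and its deposited ratios in the authors' deposited table, 0.190, 0.219, 0.250 and 0.185, also peaked at 30 min. Rack1, a scaffold protein bound to the small subunit, is in the TPM data alone, at 237, 187, 240, 229 and 245.

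Large subunit mRNAs had a median log2 fold of -0.59 at 5 min and 0.15 at 60 min over 11 measured genes, 7 of them above 0 at 60 min. The members' medians were -0.57 and 0.24, and those of all genes 0.0046 and -0.016. Median CDS was 813 nt for these large subunit genes, 792 nt for the members and 1626 nt for all genes. Median deposited ratios at 5 min were 0.220, 0.224 and 0.333 in that order, and at 60 min 0.203, 0.217 and 0.181. Over the 913 genes of 700 to under 900 nt they were 0.207 and 0.183. The part of CDS length in these medians was not tested. At 60 min the members' median was 0.47 without Rps3, an alternative chosen after seeing the data, and 0.094 on log2(TPM + 1). Rpl4 and Rpl3, with the most counts of that list, went from 2620 to 556 and from 2254 to 444 between 0 and 60 min. Their log2 folds at 60 min were 0.25 (0.12 to 0.38) and 0.14 (-0.0052 to 0.29). Rpl10a was highest with 1.38 (0.93 to 1.90) and Rpl14 lowest with -0.83, the latter on 14 counts at 0 min and 1 at 60 min (-6.72 to 1.40). Of 10 large subunit genes tested, 0 were called over the 5 libraries on TMM-scaled counts. Over the 4 treated ones 3 were called higher, Rpl10a (slope 0.42), Rpl7 (0.34) and Rpl8 (0.31), with adjusted p = 0.0199, 0.0249 and 0.0393 by edgeR, against 5.1% of all genes. On the mitochondrial scaling over the same libraries 0 of the 10 were called in either direction, against 0.568% of all genes higher and 45.8% lower.

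Other TOP messages, elongation factors and initiation factor subunits among them, had medians of -0.47 at 5 min and 0.25 at 60 min over 16 genes. Eef1a1, the factor that delivers aminoacyl-tRNA, had 10292 counts at 0 min and 2642 at 60 min, with a log2 fold of 0.53 (0.46 to 0.59). Eef2, the translocation factor, has a longer CDS of 2577 nt and was at 0.48 at 5 min and 0.56 at 60 min. Naca, of the nascent chain complex, was highest at 60 min with 1.62 (1.5 to 1.76), and Vim, the intermediate filament protein of glia and vessels, lowest with -1.46 (-1.89 to -1.08). The members' range at 60 min, -0.37 to 0.72, lay inside this range. Over the 5 libraries 0 of 16 were called on TMM-scaled counts, and over the 4 treated ones 4 were called higher and 0 lower: Naca, Nap1l1 and the initiation factor subunits Eif3f and Eif3h. Of all genes 5.1% were called higher there. On the mitochondrial scaling Naca alone was called higher and Vim alone lower, so the calls of Nap1l1, Eif3f and Eif3h were lost.

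Genes that assemble or act on the small subunit had medians in the opposite order, higher at 5 than at 60 min. Assembly factors, 29 of 30 in the count table, had medians of 0.12 at 5 min and -0.51 at 60 min, with 3 of 29 above 0 at 60 min. They have longer CDS, with a median of 1911 nt against 792 nt for the members. Pno1, which acts late in small subunit assembly and has a CDS of 747 nt, was lowest at 60 min, with 201 counts at 0 min and 15 at 60 min and a log2 fold of -1.21 (-2.12 to -0.50). Emg1, a methyltransferase of small subunit RNA with 735 nt, was highest with 1.00 (0.20 to 1.88) on 48 and 18 counts. Kinases of Rps6, phosphatases and mTOR, Rptor and Larp1 upstream, 14 of 14 measured, had medians of 0.14 and -0.34, from Rps6kb2 at -0.94 (-3.48 to 0.52) to Rps6ka4 at 1.05 (0.61 to 1.51). Over the 4 treated libraries 8 of 29 assembly genes and 2 of 13 genes of the kinase list, Mtor and Rptor, were called lower on TMM-scaled counts, against 10.1% of all genes, and 0 higher in both lists. On the mitochondrial scaling 17 of 29 and 7 of 13 were called lower, against 45.8% of all genes. Both shares of the kinase list were thus near those of all genes. Small subunit proteins of the mitochondrial ribosome, which are made in the cytosol, had medians of -0.63 and -0.10 over 12 genes, from Mrps18b at -1.08 (-2.42 to -0.14) to Mrps27 at 0.24 (-0.28 to 0.75). Over the 4 treated libraries 1 of the 12, Dap3, was called higher on TMM-scaled counts (slope 0.27, adjusted p = 0.0393 by edgeR) and 0 on the mitochondrial scaling.

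**Figure D5:**
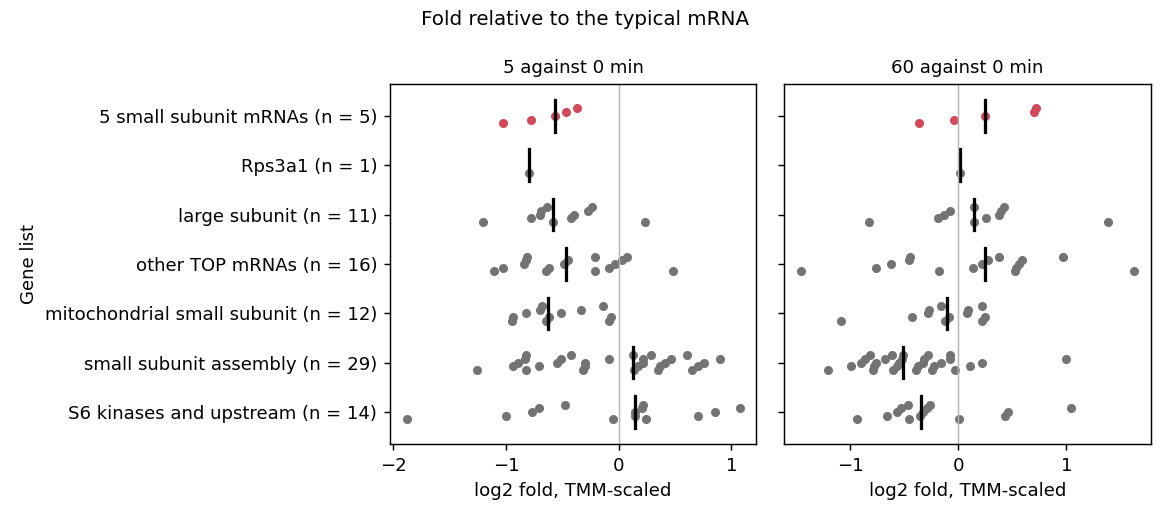
Log2 fold against 0 min, relative to the typical mRNA (TMM-scaled), at 5 min (left) and 60 min (right); each point is a gene of the named list and black bars are medians. The 5 members (top row) lie between -1.03 and -0.37 at 5 min and between -0.37 and 0.72 at 60 min.

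Genes with the course most like the members' mean were sought among 4201 genes with at least 50 counts in every library, by Euclidean distance of log2 folds over the 4 treated libraries. Among the 5 closest were Btbd1 (distance 0.108), Emc7 (0.147), a subunit of the membrane insertion complex of the endoplasmic reticulum, Pdxk (0.168), pyridoxal kinase, and Mapre3 (0.178), a microtubule end-binding protein. Btbd1 had log2 folds of -0.60, -0.19, 0.33 and 0.34 in time order, against means of -0.64, -0.16, 0.37 and 0.25 for the members. The members themselves lay at 0.373 (Rps4x) to 0.975 (Rps3) from their mean. The named genes were chosen for a small distance, so their lying closer than the members was fixed by that choice. Rps3, with 41 counts at 60 min, would not have passed their count filter. Of the 20 closest genes, 2 were in the ribosomal or other TOP lists. Those lists (other small subunit, large subunit and other TOP) hold 1, 11 and 16 of the 10329 genes in the count table. How many of them are among the 4201 genes was not counted, so nothing is read from the 2.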

How the data were processed

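Ribosome footprints were sequenced as 75 bp reads from 1 pool of slices per time point. Tools and build listed in the submitters' processing notes were TopHat2 2.0.9, Bowtie2 2.1.0 and mm10, beside SAMtools 0.0.19, Trimmomatic 0.32 and cutadapt 1.7.1; RSEM appears in the deposited names, with roles and settings not given in the sources used here. Expected counts were deposited by the authors (whole numbers as listed, rounded without change). The authors also deposited a signal, which equals the count per kilobase of CDS less 600 nt over 1 factor per library, and ratio columns dividing that signal by its value at 0 min. Deposited TPM, rounded to whole numbers, was used for Rack1, Mbp, the order of levels and the mitochondrial scaling. It also served the limma slopes and the folds on log2(TPM + 1). Deposited scores hold the fraction lost between times and were not used. Slopes were fitted on all genes with a mean of at least 10 counts by edgeR 4.0.16 in R 4.3.3, with 3 residual degrees of freedom, TMM scaling and Benjamini-Hochberg adjustment at 0.05. DESeq2 1.42.0 and limma 3.58.1 were alternatives. Folds used a prior count of 2; sizes of 2-fold were counted among genes with at least 100 counts over the 2 libraries together. Intervals are exact binomial for ratios, conditional exact for pairs and exact Poisson for levels; without stated molecular identifiers they cover counting error only and may be too narrow. The mitochondrial factors, carried to the count scale through 1427 genes with CDS of at least 2000 nt, differed from the deposited factors by at most 2.42%. The fit's code was checked on simulated counts with slopes far larger than those of the members, which says nothing of its power at their size. Named genes were the members, the highest and lowest of each list at 60 min, the 2 with most counts in ribosomal and TOP lists, any gene passing the slope test, and the 5 nearest courses, less what is not reported here; list genes named for a call over the treated libraries, and Plek, were chosen after their values were seen. The members and lists were chosen with earlier results of these data known.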

Additional observations from a re-analysis of the deposited data

How the results depend on the processing

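Without a replicate at any time point, the depth sets the limit: Rps3 had 41 to 54 counts in each treated library. No paired analysis was possible because each group holds 1 library. On TMM-scaled slopes 0 of 5 members were called lower or higher, against 1 and 0 of all 9444 genes tested. With mitochondrial scaling or the deposited factors 5 were called lower, as were 8859 and 8900 of the 9444 genes. These 5 calls thus say nothing particular of the members. The slopes of Rpsa, Rps2, Rps4x and Rps6 changed sign to -0.25, -0.26, -0.34 and -0.40 with mitochondrial scaling and to -0.26, -0.26, -0.34 and -0.40 with the deposited factors. Rps3 turned to 0.0011 per minute on minutes in place of log2 time and ranged from -0.069 to 0.24 without single libraries, the latter without 0 min. Rps6 turned to -0.012 with limma on log2(TPM + 1), log2(TPM + 0.5) and log2(TPM + 5), and ranged from -0.0040 (without 30 min) to 0.18 (without 0 min) without single libraries. Without single libraries 0 to 3 members were called higher, the 3 without 0 min, when 5.1% of all 8631 genes tested were.

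Over all genes, 1 lower and 0 higher calls became 8859 and 0 with mitochondrial scaling, 8900 and 0 with the deposited factors, 3 and 0 with DESeq2 size factors, and 37 and 36 with DESeq2's Wald test. Lower calls became 0 with limma on log2(TPM + 0.5) and log2(TPM + 5). Leaving out 1 library gave 0 to 874 lower and 0 to 440 higher; the cause was not tested. Median log2 folds of the members at 5 and 60 min, -0.57 and 0.24, became -2.18 and -2.18 with mitochondrial scaling and -2.15 and -2.18 with the deposited factors. Genes at least 2-fold lower and higher at 60 min fell from 377 and 337 to 235 and 199 at 200 counts together, where fewer genes are tested. All 20 folds of single members moved beyond their counting intervals with those 2 scalings and stayed inside them with DESeq2 size factors, prior counts of 0.5 and 5 and log2(TPM + 1), although Rps3 at 5 min was no longer 2-fold lower with a prior count of 5 (-0.99) or log2(TPM + 1) (-0.90). The members' median at 60 min, 0.24, became 0.47 without Rps3, an alternative chosen after seeing the data, and 0.094 with log2(TPM + 1); at 5 min it became -0.52 and -0.42. These values lie inside the counting interval of the member at the median, Rps4x at 60 min and Rps6 at 5 min.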
